A study of Mus musculus with 9 samples.

Results

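Ribosome biogenesis factors are the proteins that transcribe, modify, cleave and fold ribosomal RNA as it becomes part of a ribosomal subunit. The set described here holds 43 genes, chosen by name, with earlier results of these data known: 4 of RNA polymerase I transcription, 3 of the box C/D and 4 of the box H/ACA ribonucleoproteins, 5 nucleolar phosphoproteins and regulators, 15 factors of the small subunit, 10 of the large subunit, and the paired RNA helicases Ddx21 and Ddx50. All 43 were found on the array through the RefSeq accessions of its probes, and the brightest probe of a gene stood for it. Of these, 42 were measured, among 12437 named genes and 21800 features tested in all. The probe of Utp18, a factor of the small subunit, was not well above background on any of the 9 arrays, so Utp18 has no level here.

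The samples were cultured clones of mouse embryonic cells, all p53-/- and untreated, grown in medium with 10% serum. They fall into groups by ploidy, that is, by how many sets of chromosomes a cell holds: 3 clones were diploid, 3 triploid and 3 tetraploid, with 1 one-colour array each. The title of the series places triploidy in the context of unstable genomes and tumours. The controls lack p53 too, so no group shows cells with that tumour suppressor. For all clones but diploid clone 1, a free-text label gives another number in place of that in the name p53, while the genotype field names p53 throughout. Embryonic stage and tissue were not given. Names of the triploid and tetraploid clones extend that of diploid clone 1, and whether clones share a parent line was not stated. P-values therefore measure only the spread between these samples.

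Ribosome assembly begins in the nucleolus, where RNA polymerase I copies the ribosomal DNA into a long precursor. Small nucleolar ribonucleoproteins of the box C/D kind guide methylation of its sugars, those of the box H/ACA kind guide pseudouridine formation, and a large processome folds and cuts the part that becomes the small subunit. Helicases, methyltransferases and scaffold proteins build the large subunit from the rest. Growth signals and the transcription factor Myc raise many of these genes together, and dividing cells need their products to make new ribosomes.

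Levels below are log2 signals minus the 75th percentile of the array, so that 0 is that percentile and 1 unit is a doubling. A level can be compared between clones for 1 gene, but not between genes. Differences are group means of 3 clones subtracted from each other, ± the standard error (SE) of a limma fit over all 9 arrays. Adjusted p-values are Benjamini-Hochberg values over all 21800 features, and a difference passed the test below 0.05. Arrays of bulk cells cannot tell a change in RNA per cell from a change in the share of cells that hold it. For every clone 0.5 µg of RNA was labelled, and each array was centred on its own signals. Levels are thus relative to the other signals of an array, and total RNA per cell was not measured.

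Between 44.8% and 50.9% of spots per array were well above background, and 0 were saturated. Tetraploid clone 3 had the highest share and the highest 75th percentile of signal, 407 units against 215 for the lowest array. After centring each feature on its mean over the 9 clones, the median over all features was -0.26 in tetraploid clone 3 and between -0.05 and 0.12 in the other clones. Diploid clone 1 was alone on its slide, and the other 8 arrays shared a slide. The 8 fibroblast and mesenchyme markers were all measured, with summed levels of 956 to 1332 times the 75th percentile in diploid, 596 to 1296 in triploid and 1166 to 1410 in tetraploid clones. That sum rests on a few bright probes, and single markers went either way: triploid minus diploid was -8.71 ± 1.95 for Thy1 (limma adjusted p = 0.0603) and 1.77 ± 0.54 for the collagen Col3a1 (0.118). Thy1 was kept through the diploid arrays and was well above background on 2 of 3 arrays in each other group. The size and p of its difference thus rest in part on signals near background. Tetraploid minus diploid was -7.58 ± 1.95 for Thy1 (limma adjusted p = 0.129), and those clones overlapped. Of the other marker lists, 4 of 7 pluripotency genes, 2 of 5 epithelial, 1 of 5 leukocyte and 2 of 5 endothelial genes were measured. Pou5f1, Sox2, Epcam, Cdh1, Ptprc and Cdh5, which define those cell types, were not well above background on all 3 arrays of any group. Nanog, Lin28a, Tdgf1, Csf1r, Pecam1 and Kdr of these lists were, on all 9 arrays. In multiples of the 75th percentile, the endothelial list summed to 24.7 to 32.1 in diploid, 19.1 to 36.3 in triploid and 13.6 to 23.0 in tetraploid clones. The leukocyte list, measured by Csf1r alone, gave 9.40 to 11.8, 6.61 to 11.5 and 4.56 to 8.05. The pluripotency list lay between 1.37 and 3.23 over all clones. The summed level of the epithelial list was 12.8 to 32.7 times the 75th percentile in diploid, 0.518 to 1.60 in triploid and 30.5 to 48.9 in tetraploid clones, a sum carried by the keratin Krt19. Krt19 fell by 5.08 ± 0.54 from diploid to triploid clones (limma adjusted p = 0.00459) and differed by 0.71 ± 0.54 between tetraploid and diploid clones. Krt18, the other measured epithelial gene, had differences of -3.04 and -3.74 (adjusted p = 0.122 and 0.123), and both groups lay below the diploid clones, though it was well above background on 1 of 3 tetraploid arrays. The part of these markers in the differences below was not tested.

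Promoters of ribosome biogenesis genes are known for the E-box CACGTG, the palindrome bound by Myc and its partner Max. RefSeq promoter windows of the build GRCm38.p6, from 250 bases before to 50 bases after a gene's start, were at hand for 37 of the 43 members. The E-box stood in 10 of these 37 (27.0%), against 11.5% of 9952 tested named genes and 8.09% of all 27025 genes with a window. Among measured members alone it was 9 of 36, and in a wider list of pathway genes 16 of 97 (16.5%). It occurred at 11 places, 4 of them before the start and 7 after it, and 10 of the 11 lay within 60 bases of the start. A match of letters is a description and no evidence of binding. The sites of 6 members whose levels are described below show how closely the E-box sits to the start. Each is given on the strand of its gene, with the E-box in capitals.

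Nop2, chr6:125131814-125131837, plus strand, first capital 60 bases before the start: tccctggatCACGTGtgttccggt
Rrn3, chr16:13780642-13780665, plus strand, first capital 48 bases before the start: cgctctgctCACGTGggccgcgtc
Pes1, chr11:3963968-3963991, plus strand, first capital at base 3 of the transcript: taggcagggCACGTGcgggaggaa
Wdr43, chr17:71616223-71616246, plus strand, first capital at base 18: ccgggcgaaCACGTGgctgccgcg
Ltv1, chr10:13193095-13193118, minus strand, first capital at base 29: ctgtggaccCACGTGtggagctgc
Mybbp1a, chr11:72441358-72441376, plus strand, first capital at base 41: ttctgagccCACGTGtttg

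The other members with the E-box were Grwd1, Tsr1, Utp18 and Utp20, and Rrn3 held it at a further place. For Nop2, a methyltransferase of large subunit RNA whose E-box lies wholly before the start, the 250 bases upstream (chr6:125131633-125131882, plus strand) show the CpG-rich setting of the site, with 30 CpG pairs and 67.6% G or C.

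Nop2 upstream: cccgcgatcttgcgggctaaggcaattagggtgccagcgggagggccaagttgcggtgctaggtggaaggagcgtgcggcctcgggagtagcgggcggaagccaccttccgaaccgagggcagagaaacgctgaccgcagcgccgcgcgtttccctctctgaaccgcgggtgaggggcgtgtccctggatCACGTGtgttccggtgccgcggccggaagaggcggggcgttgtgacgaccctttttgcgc

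A motif of the ETS type, CCGGAAGT or its reverse complement ACTTCCGG, stood in 9 of the 37 windows (24.3%), against 8.87% of tested named genes and 29.9% of the wider list. These were the windows of Ddx50, Gar1, Grwd1, Heatr1, Ltv1, Nhp2, Noc2l, Rrn3 and Tsr1. Of them, 4 held the E-box too (Grwd1, Ltv1, Rrn3, Tsr1), and the motifs shared no bases in any member. A motif of the YY1 type, AAGATGGC or GCCATCTT, stood in 1 of 37 windows (2.70%, against 5.18% of tested named genes and 7.22% of the wider list).

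In the triploid clones all 42 measured members had a higher mean than in the diploid clones, with differences from 0.13 to 1.29 and a median of 0.70, or 1.63-fold. Over all features tested, 57.8% were higher and the median difference was 0.10. For 28 members the lowest triploid clone lay above the highest diploid clone, and for 0 the reverse held, where 17.2% of all features stood apart upward and 10.8% downward. No single member passed the test: 0 of 42, against 1.83% of all features, with a lowest adjusted p of 0.103. At an unadjusted p under 0.05, 16 members were higher and 0 lower, where 11.6% of all features were higher and 9.61% lower. Centring the arrays on probes seen on all arrays moved the median of all features to -0.05 and left 41 members higher. Without diploid clone 1, the array on a slide of its own, the members' median stood 0.77 above that of all features, against 0.61 with it.

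**Figure D1:**
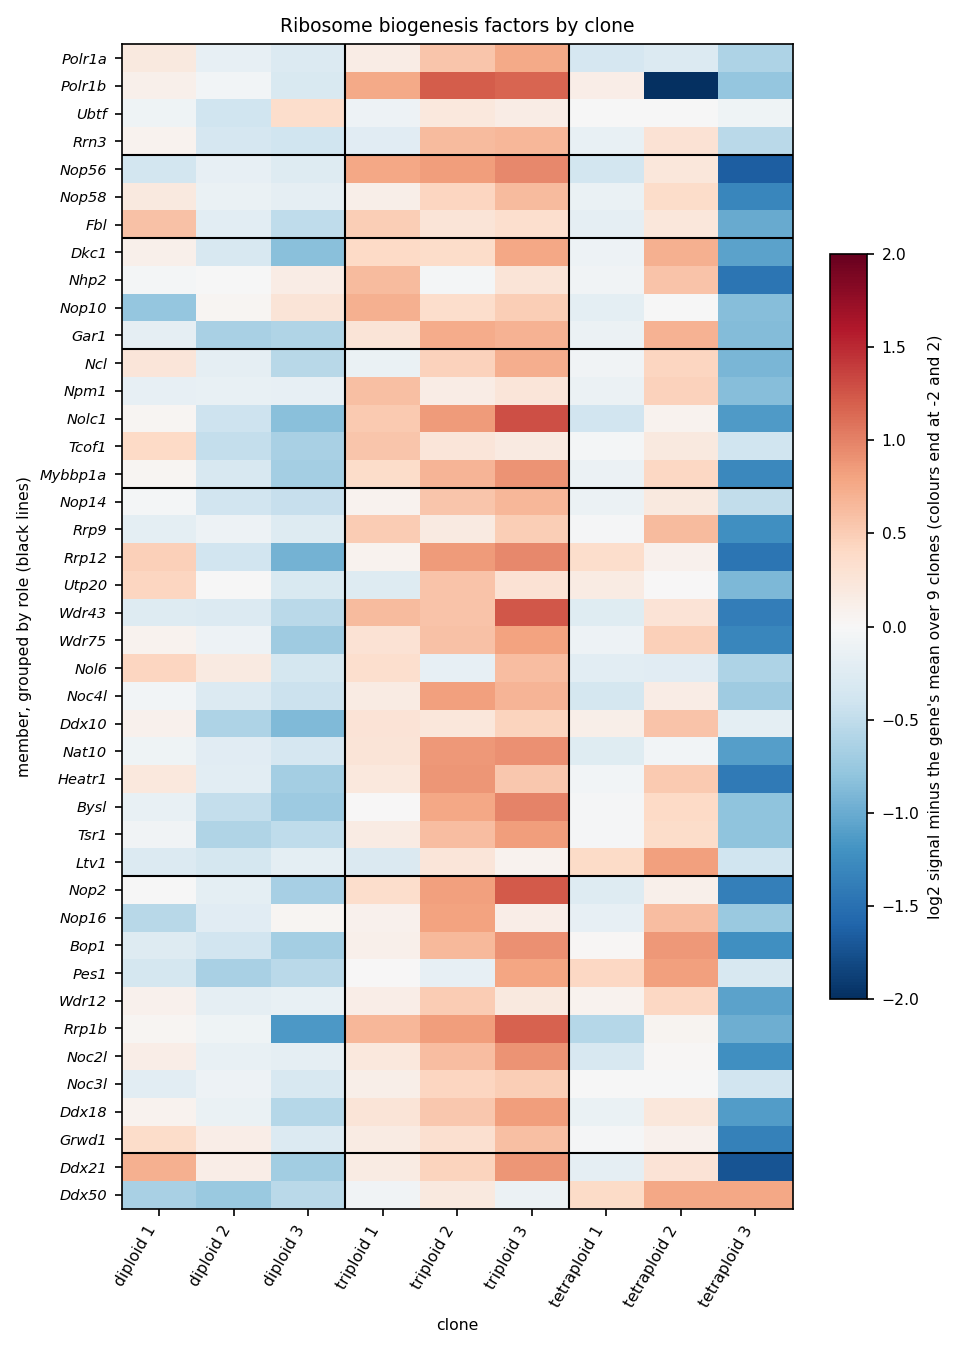
Level of each of the 42 measured members (rows, grouped by role between the black lines) in each of the 9 clones (columns), as log2 signal minus the gene's own mean over the clones; red is above and blue below that mean. The triploid columns are red for most rows, tetraploid clone 3 is the lowest clone for 35 members, and Ddx50 in the last row runs opposite to Ddx21 above it in that clone.

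The tetraploid clones did not share this shift. Against the diploid clones, 15 members had a higher and 27 a lower mean, with a median of -0.06, where 48.7% of all features were higher and their median was -0.01. Among all named genes 58.9% were higher, with a median of 0.10. None passed the test (0 of 42, against 0.0734% of all features), with 2 higher and 0 lower at an unadjusted p under 0.05 (6.44% and 8.36% of all features). Pes1 (at its brighter probe only) and Ddx50 were the 2 whose tetraploid clones all lay above the diploid clones, and 0 stood apart downward, where 11% and 11.1% of all features did. The direction rested on single clones. Without tetraploid clone 3, 37 members were higher and 5 lower, with a median 0.23 above that of all features. Without tetraploid clone 2, 8 were higher and 34 lower, with a median 0.27 below it (-0.27).

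Set directly against the tetraploid clones, the triploid clones had a higher mean for 39 members and a lower one for 3, which were Ddx50, Ltv1 and Pes1. The median difference was 0.69, where 61.9% of all features were higher and their median was 0.17. Among all named genes 52.8% were higher, with a median of 0.04. Again 0 of 42 members passed the test, against 2.7% of all features, with 13 higher and 1 lower at an unadjusted p under 0.05 (10.9% and 9.89% of all features). Of the members, 16 stood apart upward and 1 downward, where 14.7% and 11.3% of all features did. Relative to all features the median was 0.52, and 0.30 without tetraploid clone 3. Comparisons that share a group also share its clones, so they are not independent of each other.

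**Figure D2:**
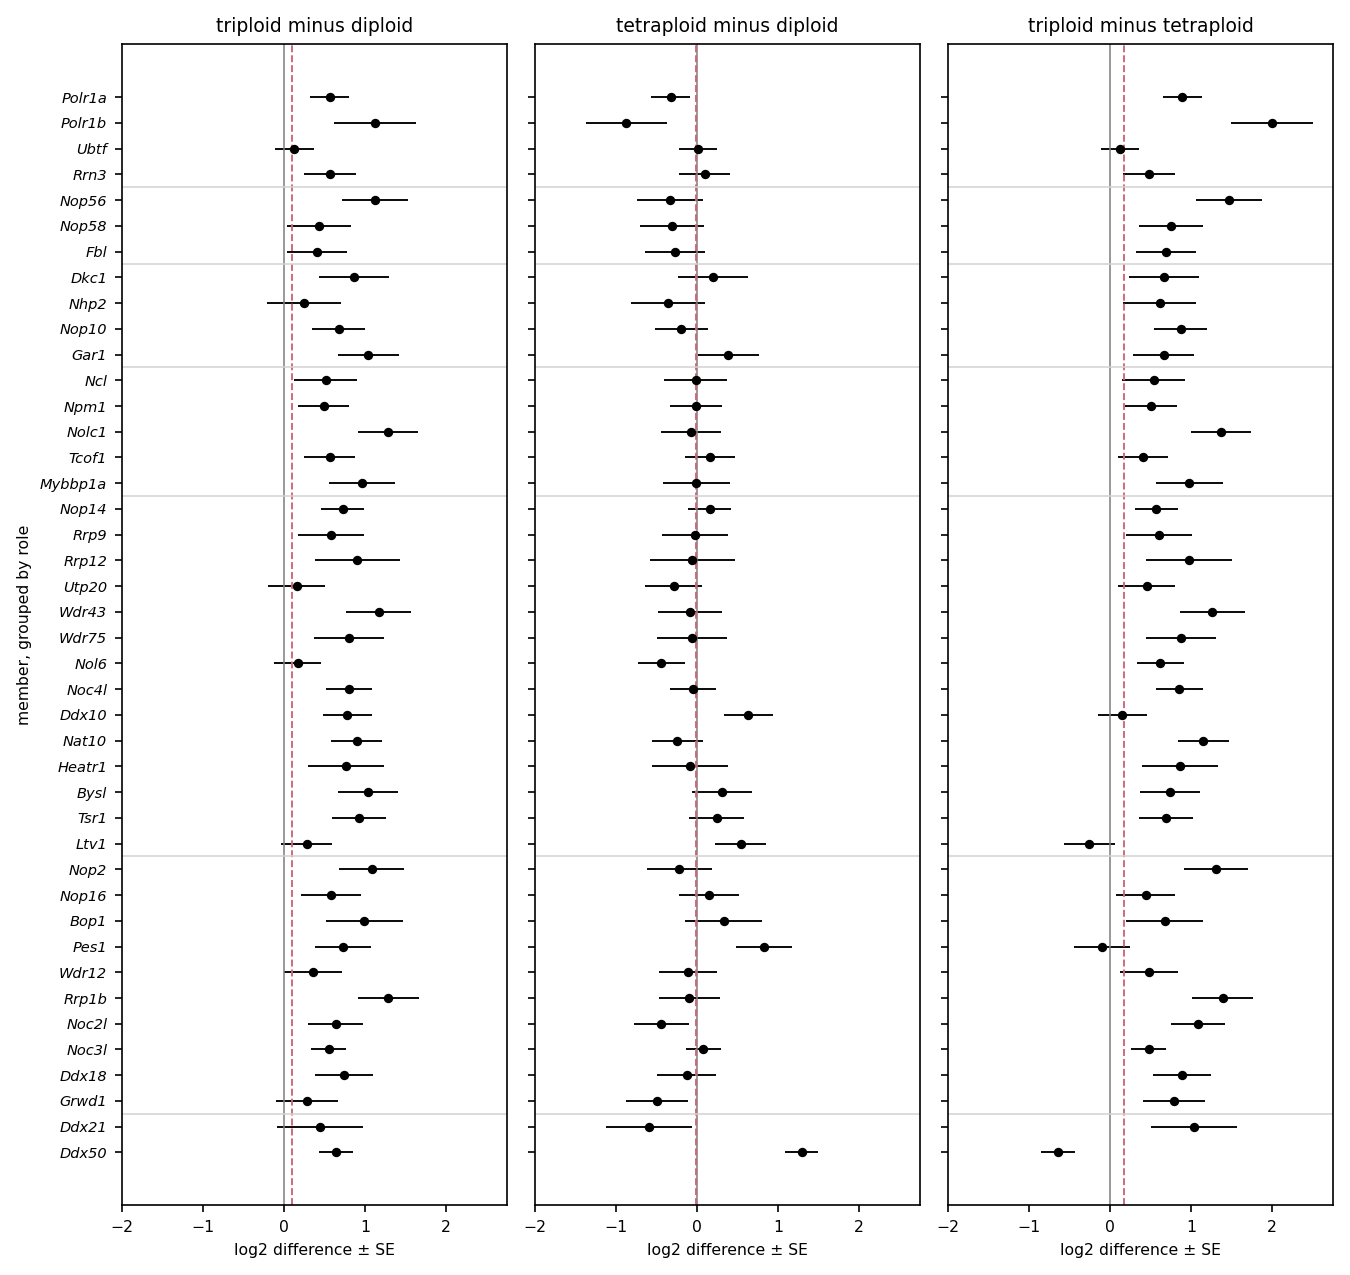
Log2 difference of group means (points) ± SE of the limma fit (bars) for each of the 42 measured members, in rows grouped by role, for the 3 pairs of groups; the grey line marks 0 and the dashed line the median of all features. All points lie right of 0 for triploid minus diploid, 15 of 42 do for tetraploid minus diploid, and 39 of 42 for triploid minus tetraploid.

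Seen clone by clone, most members were highest in a triploid clone and lowest in tetraploid clone 3. Their median level, each gene centred on its mean over the 9 clones, was 0.04, -0.21 and -0.48 in diploid clones 1 to 3. It was 0.21, 0.56 and 0.69 in the triploid clones and -0.11, 0.27 and -0.94 in the tetraploid clones. All triploid clones thus lay above all diploid clones, though triploid clone 1 lay below tetraploid clone 2, and the tetraploid clones spanned the widest range of the 3 groups. Triploid clone 1 was above the diploid mean for 38 members, triploid clone 2 for 40 and triploid clone 3 for 42. Tetraploid clones 1, 2 and 3 were above it for 29, 38 and 3 members. The highest clone of a member was triploid for 35 of 42, tetraploid for 5 and diploid for 2. Tetraploid clone 3 was the lowest clone for 35 members. For 12 of the 42 members all 3 triploid clones lay above all 6 other clones, which held for 6.01% of all features.

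Proliferation markers, a list of 12 genes of DNA replication and mitosis, moved in part alongside. Their medians on the same scale were -0.17, -0.57 and -0.63 in the diploid, 0.02, 0.59 and 0.40 in the triploid, and -0.06, 0.57 and -0.28 in the tetraploid clones. Of the 12, 11 had a higher mean in triploid than in diploid clones (median 0.80) and 11 in tetraploid than in diploid clones (median 0.53), and 0 passed the limma test in any pair of groups. At an unadjusted p under 0.05, 8 and 3 were higher in these 2 comparisons, where 11.6% and 6.44% of all features were. For triploid against tetraploid clones 1 of the 12 was, a share near the 10.9% of all features. Their summed level was 378 to 455 times the 75th percentile in diploid, 601 to 765 in triploid and 437 to 780 in tetraploid clones. Myc itself was at 2.47, 2.19 and 2.55 in the diploid, 2.45, 2.87 and 2.90 in the triploid and 2.47, 2.60 and 1.81 in the tetraploid clones, and its groups overlapped. The difference in Myc between triploid and diploid clones was 0.34 ± 0.27 (limma adjusted p = 0.518). Tetraploid clone 3 was thus lowest both for Myc and for most members. Of 4 listed genes of the Myc network, 3 were measured, and 1 of them, not Myc, passed the limma test in both comparisons with tetraploid clones. Its difference was -2.68 for tetraploid minus diploid (limma adjusted p = 0.0383) and 1.75 for triploid minus tetraploid clones (0.0314). Of all features, 0.0734% and 2.7% passed in these comparisons. The part of proliferation, of Myc or of the array of tetraploid clone 3 in the members' levels was not tested.

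**Figure D3:**
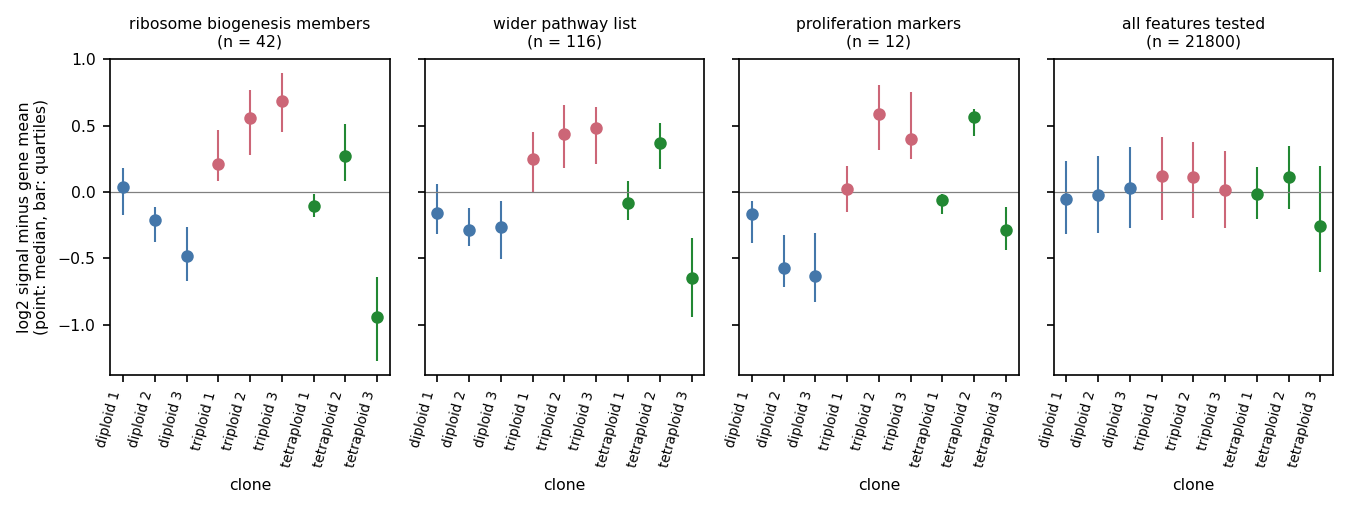
Median (points) and quartiles (bars) of the log2 signal minus each gene's mean over the 9 clones, for the 42 members, the wider pathway list of 116 genes, the 12 proliferation markers and all 21800 features; blue is diploid, red triploid and green tetraploid. The members range from -0.94 in tetraploid clone 3 to 0.69 in triploid clone 3, and all features from -0.26 to 0.12.

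Across the 9 clones most members tracked each other. The median Pearson's r over their 861 pairs was 0.753, with quartiles of 0.543 and 0.881, and 35 pairs were below 0. These values describe 9 clones in 3 groups that share the scaling of their arrays. Closest to the median of the other members were Mybbp1a, a nucleolar repressor and processing factor (r of 0.997), the helicase Ddx18 (0.993), the small subunit factor Wdr75 (0.986) and Nop2 (0.982). Farthest were Ddx50 (-0.079), the polymerase I activator Ubtf (0.197), Polr1b (0.431), Ltv1 (0.495) and Pes1 (0.574). The standard deviation of a member over the 9 clones was 0.57 at the median, against 0.43 for all named genes.

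Polymerase I makes the ribosomal precursor, and its 4 members did not move alike. Polr1b, the second-largest catalytic subunit, was at 0.72, 0.55 and 0.32 in diploid, 1.37, 1.82 and 1.78 in triploid and 0.75, -1.61 and -0.16 in tetraploid clones. The triploid clones lay above all others, and the tetraploid clones were spread over more than 2 units. Triploid minus tetraploid was 2.00 ± 0.50 (limma adjusted p = 0.0689), or 3.99-fold, and triploid minus diploid 1.13 ± 0.50 (adjusted p = 0.238). Neither passed the test, though the former did without tetraploid clone 1 (adjusted p = 0.0467) and with normexp background correction (0.0475).

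Polr1a, the largest subunit, was at 2.83, 2.47 and 2.35 in diploid, 2.78, 3.19 and 3.39 in triploid and 2.30, 2.36 and 2.02 in tetraploid clones. Triploid clones lay above tetraploid clones, by 0.89 ± 0.24 (limma adjusted p = 0.0827, and 0.0452 without triploid clone 1), and overlapped the diploid clones. Rrn3, which joins the polymerase to the promoter, had a triploid minus diploid difference of 0.57 ± 0.32. For Ubtf, which binds the ribosomal DNA, the difference was 0.13 ± 0.24, the smallest of all members. Diploid clone 2 was its lowest clone, at 7.25, and diploid clone 3 its highest, with a range of 0.76 over all 9 clones.

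The box C/D proteins Nop56 and Nop58 form the scaffold on which fibrillarin, encoded by Fbl, methylates RNA. Nop56 was at 6.67, 6.87 and 6.78 in diploid, 7.82, 7.88 and 8.01 in triploid and 6.67, 7.27 and 5.39 in tetraploid clones. Its 3 triploid clones lay close together and above all others. The difference was 1.13 ± 0.41 from diploid (limma adjusted p = 0.166) and 1.46 ± 0.41 from tetraploid clones (adjusted p = 0.0894). Each passed the test once a spread-out tetraploid clone was left out: the first without tetraploid clone 3 (0.0471), the second without tetraploid clone 2 (0.0354). Without tetraploid clone 3 the second was 0.93 (0.136). Nop58 and Fbl differed by 0.44 ± 0.39 and 0.41 ± 0.37 between triploid and diploid clones. For Fbl, diploid clone 1 was the highest of the 9 clones at 4.70.

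The box H/ACA proteins, with the pseudouridine synthase Dkc1 at their centre, had triploid minus diploid differences from 0.25 (Nhp2) to 1.04 (Gar1), with Nop10 at 0.68 and Dkc1 at 0.86. For 3 of the 4 the triploid clones lay above the diploid clones, as for 17.2% of all features, and Nhp2 overlapped. Against tetraploid clones the differences ran from 0.61 to 0.87.

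Among the nucleolar phosphoproteins, Nolc1, a chaperone of small nucleolar ribonucleoproteins, had the smallest p of all members for triploid against diploid clones. It was at 4.73, 4.29 and 3.85 in diploid, 5.21, 5.54 and 5.99 in triploid and 4.31, 4.77 and 3.56 in tetraploid clones. The triploid clones lay above all others, by 1.29 ± 0.37 from diploid (2.44-fold, limma adjusted p = 0.103) and 1.37 ± 0.37 from tetraploid clones (2.58-fold, adjusted p = 0.0816). Nucleolin (Ncl), nucleophosmin (Npm1) and treacle (Tcof1), which organises ribosomal DNA transcription, differed by 0.49 to 0.57 between triploid and diploid clones, and Mybbp1a by 0.97 ± 0.41.

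The 14 measured factors of the small subunit had a median triploid minus diploid difference of 0.79, from 0.16 (Utp20) to 1.17 (Wdr43), and for 10 of them the triploid clones lay above the diploid clones, as for 17.2% of all features. Wdr43, a subunit of the processome, was at 4.10, 4.09 and 3.81 in diploid, 4.99, 4.92 and 5.60 in triploid and 4.12, 4.63 and 2.98 in tetraploid clones. Its difference from diploid clones was 1.17 ± 0.40 (limma adjusted p = 0.147), and the triploid clones lay above all others. Nat10, an RNA acetyltransferase, was at 3.32, 3.19 and 3.07 in diploid, 3.67, 4.28 and 4.33 in triploid and 3.18, 3.36 and 2.30 in tetraploid clones.

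For Nat10 too the triploid clones lay above all others, by 0.90 ± 0.31 from diploid (limma adjusted p = 0.156) and 1.15 ± 0.31 from tetraploid clones (0.0848, and 0.0491 without triploid clone 1). Noc4l, a nucleolar assembly factor, was at 2.57, 2.35 and 2.18 in diploid, 2.78, 3.43 and 3.30 in triploid and 2.27, 2.77 and 1.91 in tetraploid clones, where tetraploid clone 2 came level with triploid clone 1. Its triploid minus diploid difference was 0.80 ± 0.28 (adjusted p = 0.160). Bysl and Tsr1, needed for late steps of the small subunit, differed by 1.04 and 0.93, Rrp12 by 0.91, Wdr75 by 0.81, Heatr1 by 0.77, Nop14 by 0.73 and Rrp9 by 0.58.

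Other factors of the small subunit took another pattern. Ltv1, which rides on late precursors of the small subunit, was at 4.47, 4.39 and 4.56 in diploid, 4.45, 4.99 and 4.82 in triploid and 5.13, 5.56 and 4.34 in tetraploid clones. Its 2 highest clones were tetraploid, and the groups overlapped, with a tetraploid minus diploid difference of 0.54 ± 0.31 (limma adjusted p = 0.456). The helicase Ddx10 was at 0.87, 0.16 and -0.10 in diploid, 1.05, 1.00 and 1.22 in triploid and 0.89, 1.35 and 0.59 in tetraploid clones. Its mean was above the diploid mean in both other groups, by 0.78 ± 0.30 in triploid (adjusted p = 0.183) and 0.63 ± 0.30 in tetraploid clones (0.366), and tetraploid and diploid clones overlapped. Nol6 was at 1.64, 1.40 and 0.87 in diploid, 1.55, 1.05 and 1.84 in triploid and 1.00, 0.99 and 0.60 in tetraploid clones, with triploid and diploid clones overlapping. Its tetraploid minus diploid difference was -0.44 ± 0.29 (adjusted p = 0.508).

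The 10 factors of the large subunit had a median triploid minus diploid difference of 0.68, from 0.29 (Grwd1) to 1.29 (Rrp1b), and for 9 of them the triploid clones lay above the diploid clones (17.2% of all features). Rrp1b, a nucleolar protein of the large subunit precursor, was at 0.87, 0.73 and -0.33 in diploid, 1.48, 1.66 and 2.00 in triploid and 0.25, 0.88 and -0.15 in tetraploid clones. The triploid clones lay above all others, by 1.29 ± 0.38 from diploid (2.45-fold, limma adjusted p = 0.109) and 1.39 ± 0.38 from tetraploid clones (2.61-fold, adjusted p = 0.0834). Nop2 differed by 1.09 ± 0.40 between triploid and diploid clones, Noc2l by 0.64, Ddx18 by 0.75, Noc3l by 0.55 and Nop16 by 0.59.

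Pes1, Bop1 and Wdr12 form a single complex that is needed to mature large subunit RNA, and their levels differed in pattern. Pes1 was at 2.74, 2.45 and 2.56 in diploid, 3.11, 2.93 and 3.88 in triploid and 3.51, 3.92 and 2.78 in tetraploid clones. Both other groups lay above the diploid clones, by 0.73 ± 0.35 in triploid (limma adjusted p = 0.265) and 0.83 ± 0.35 in tetraploid clones (0.312). A dimmer probe of Pes1 gave 0.49 and 0.23 for these differences, and its r with the brighter probe over the 9 clones was 0.679. On the dimmer probe tetraploid clone 3, at -0.47, lay below all diploid clones, the lowest of which was at -0.13. Bop1 differed by 1.00 ± 0.47 between triploid and diploid clones and Wdr12 by 0.36 ± 0.36. Against tetraploid clones the triploid difference was -0.10 for Pes1, 0.67 for Bop1 and 0.47 for Wdr12.

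Ddx50 was the single member that passed a test, that of any difference among the 3 groups (F of 18.9, limma adjusted p = 0.0377), which 2.38% of all features passed. It encodes a nucleolar RNA helicase and is the paralogue and direct neighbour of Ddx21 on chromosome 10, with 0 protein-coding genes between them in the RefSeq table. Ddx50 was at 2.40, 2.31 and 2.51 in diploid, 2.98, 3.25 and 2.93 in triploid and 3.44, 3.83 and 3.82 in tetraploid clones. The 3 groups did not overlap, and the levels ran in the order of ploidy. Tetraploid minus diploid was 1.29 ± 0.21 (2.44-fold, adjusted p = 0.0660), triploid minus diploid 0.65 ± 0.21 (adjusted p = 0.134) and triploid minus tetraploid -0.64 ± 0.21 (adjusted p = 0.130), none past the threshold. With any 1 clone other than triploid clone 1 left out, the test of any difference no longer passed, at adjusted p-values of 0.0567 to 0.0984, nor did it with dim probes kept (0.130). The difference between tetraploid and diploid clones stayed between 1.17 and 1.42 under every alternative run.

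Ddx21, whose product acts on ribosomal RNA transcription and processing, did not follow its neighbour. It was at 3.65, 3.07 and 2.25 in diploid, 3.10, 3.38 and 3.82 in triploid and 2.77, 3.22 and 1.21 in tetraploid clones. The groups overlapped in every pair. Triploid minus diploid was 0.45 ± 0.53 (limma adjusted p = 0.685) and tetraploid minus diploid -0.59 ± 0.53 (adjusted p = 0.638). A dimmer probe of Ddx21 gave 0.57 and 0.15, so the sign of the latter depends on the probe. Over the 9 clones Ddx21 had an r of 0.902 with the median of the other members and Ddx50 one of -0.079. In the 250 bases before the more upstream of its 2 listed starts, Ddx50 holds an exact match of the ETS type motif. The 250 bases before its other start do not, nor do those before the start of Ddx21, and none of these stretches holds the E-box. Sequences that differ from the motif by a letter were not counted, and any part of the motif in the levels was not tested. For each gene 1 stretch is printed on the gene's strand (minus), for Ddx50 at the more upstream start, with the ETS type motif in capitals.

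Ddx50 upstream, chr10:62651219-62651468: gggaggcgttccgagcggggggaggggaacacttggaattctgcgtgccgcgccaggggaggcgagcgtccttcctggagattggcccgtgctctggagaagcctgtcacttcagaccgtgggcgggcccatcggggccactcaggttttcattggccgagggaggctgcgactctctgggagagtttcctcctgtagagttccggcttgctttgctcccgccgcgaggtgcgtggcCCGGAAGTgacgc
Ddx21 upstream, chr10:62602299-62602548: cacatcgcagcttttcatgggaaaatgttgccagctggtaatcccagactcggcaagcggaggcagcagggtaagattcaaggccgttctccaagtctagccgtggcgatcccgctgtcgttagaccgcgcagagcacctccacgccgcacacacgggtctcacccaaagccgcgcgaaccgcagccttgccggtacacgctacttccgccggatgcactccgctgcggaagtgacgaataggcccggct

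**Figure D4:**
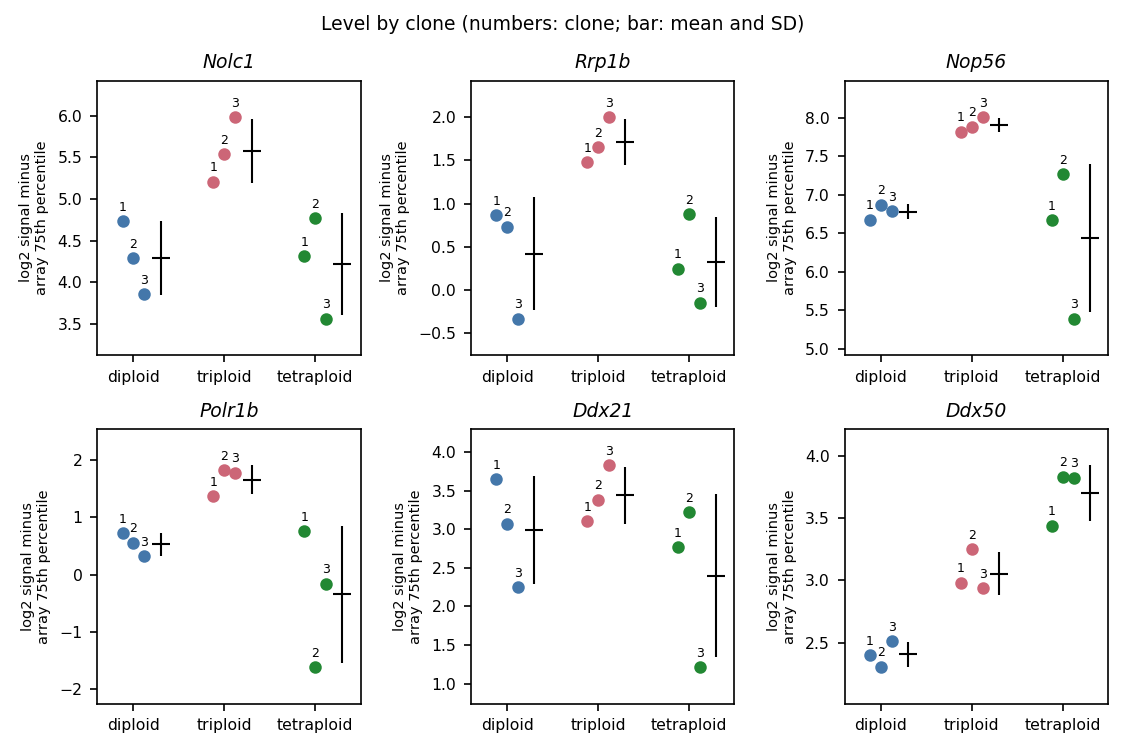
Log2 signal minus the array's 75th percentile for 6 members in each clone (points, with the clone's number), with the mean and SD of the 3 clones of each group beside them in black; each panel has its own vertical scale. Triploid clones lie above all others for Nolc1, Rrp1b, Nop56 and Polr1b, groups overlap for Ddx21, and for Ddx50 the levels step up from diploid to triploid to tetraploid.

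Members with and without the E-box had like median differences, and any part of the E-box in the levels was not tested. The 9 measured members with an E-box had a median triploid minus diploid difference of 0.73 (0.16 to 1.17), and the 27 with a window but no E-box 0.73 (0.13 to 1.29). Further probes of the members gave a check within the array. Besides the probe used, 12 members had 14 other probes above background on all 9 arrays, whose r with the used probe ran from 0.521 (Ubtf) to 0.997. All 14 had the same sign for triploid against diploid clones, but sizes differed: a far dimmer probe of Ncl gave 0.05 against 0.52, and of 3 others of Npm1, 2 nearly as bright as the one used gave 0.29 each against 0.49. The same sign held for 12 of the 14 for triploid against tetraploid clones, Pes1 and Ubtf being the exceptions. For tetraploid against diploid clones 10 of 14 did, and those of Ddx21, Nolc1, Nop56 and Wdr43 had the opposite sign. The 43 members lie on 17 chromosomes.

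Other genes of the pathway were taken from a list of 120 factors, of which 116 were measured. Of these, 108 had a higher mean in triploid than in diploid clones, with a median difference of 0.61, and 2 passed the test, both higher, where 0.615% of all features were called higher. They were Ddx51, a helicase of the large subunit, and Spout1, a putative RNA methyltransferase. Ddx51 was at 2.92, 2.95 and 2.63 in diploid, 3.77, 4.00 and 3.80 in triploid and 2.99, 3.27 and 2.89 in tetraploid clones. It rose by 1.03 ± 0.21 from diploid to triploid clones (2.04-fold, limma adjusted p = 0.0484), and the triploid clones lay above all others. Spout1 was at 4.17, 4.28 and 4.29 in diploid, 5.26, 5.22 and 5.38 in triploid and 4.51, 4.43 and 3.97 in tetraploid clones. It rose by 1.04 ± 0.21 (2.05-fold, adjusted p = 0.0490), and was higher in triploid than in tetraploid clones by 0.98 ± 0.21 (adjusted p = 0.0457). Next in order of p came Wdr3, a processome subunit, at 1.15 ± 0.31 (adjusted p = 0.0913).

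Against tetraploid clones 100 of the 116 were higher in triploid clones, with a median of 0.48, and 2 passed the test, Spout1 and Mdn1, both higher, where 1.09% of all features were called higher. Mdn1, the ATPase that strips factors from large subunit precursors, was at -1.39, -1.71 and -1.55 in diploid, -1.10, -0.85 and -0.31 in triploid and -2.47, -2.23 and -3.62 in tetraploid clones. The 3 groups did not overlap, with tetraploid clones lowest and triploid clones highest. Triploid minus tetraploid was 2.02 ± 0.37 (4.05-fold, limma adjusted p = 0.0303) and tetraploid minus diploid -1.22 ± 0.37 (adjusted p = 0.181). With normexp background correction the former was 1.09 (adjusted p = 0.0405). The helicase Ddx31 came next, at 1.61 ± 0.38 (adjusted p = 0.0578). These calls were close to the threshold: of 19 alternatives, Ddx51 kept its call in 8, Spout1 in 8 against diploid and 6 against tetraploid clones, and Mdn1 in 9. Leaving out diploid clone 1, triploid clone 2, triploid clone 3 or tetraploid clone 1 ended all of them.

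For tetraploid against diploid clones 76 of the 116 were higher, with a median of 0.10. Among all named genes 58.9% were higher, with a median of 0.10 too, and among all features 48.7%, with a median of -0.01. In the list 0 passed the test, against 0.0734% of all features. At an unadjusted p under 0.05, 5 were higher and 1, Mdn1, lower. Over all features 6.44% and 8.36% were, both larger shares than in the list. Rrp36 and the exosome subunit Exosc4 differed by 0.65 ± 0.21 (limma adjusted p = 0.200) and 0.69 ± 0.25 (0.254). As with the members, single clones set the balance: 101 of 116 were higher without tetraploid clone 3 and 36 without tetraploid clone 2. With arrays centred on probes seen on all arrays, 55 were higher. The 14 subunits and cofactors of the RNA exosome, which trims precursor ends, had medians of 0.65 for triploid and 0.36 for tetraploid against diploid clones, with 0 called by limma in either and 6 and 2 higher at an unadjusted p under 0.05, where 11.6% and 6.44% of all features were.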

How the data were processed

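Each of the 9 clones was hybridised to 1 one-colour (Cy3) mouse array. The deposited scanner files hold intensity values per spot, background-subtracted by Feature Extraction 10.7.3.1, with other flags of 0 or 1, on an mm9 design, per the file headers. A table of log2 values relative to diploid clone 1, deposited by the authors, served as an alternative. At 99.99% of 55249 probes with 1 spot, its values differed from log2 scanner signals by that clone's signal and 1 shift per array, within 0.001.

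Processed signals were averaged per probe as log2 values and centred on each array's 75th percentile. Of 55681 probes, 25473 were kept, called well above background throughout 1 group or more, and 83 were dropped for outlier flags. Accessions were named through a table of GRCm38.p6 (26413 probes named, 29268 not), and promoter windows came from RefSeq. Models with 1 mean per group were fitted in limma 3.58.1 (R 4.3.3, prior degrees of freedom 3.19). They were also run on simulated features drawn independently of each other. The differences set there were larger than any member's between triploid and diploid clones, so that run does not cover differences of their size. Arrays give no counts; precision is limited by having 3 clones a group.

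The members and lists were chosen with earlier results of these data known. Values by clone are given for members that passed a test, the 6 of smallest p in each pair of groups, and Ddx21 as the paralogue of Ddx50; of the wider list, for the called genes, with the 3 of smallest p in each pair named. Mybbp1a, Nop2 and the other members named by difference come from the list by role. No mean pixel signal was used here, so normexp ran on median signals. Alternatives covered centring, background, dim probes, probes per gene, the slide and clone number as blocks, the groups fitted and each clone left out.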

Additional observations from a re-analysis of the deposited data

How the results depend on the processing

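No result changed direction past the threshold. The members' median relative to all features moved by less than the spread between clones of a group (SD 0.35) under every alternative. That SD comes from these same clones, so the comparison cannot show that the median is stable when 1 of them is left out. The median ranged from 0.47 to 0.77 for triploid against diploid and 0.30 to 0.79 for triploid against tetraploid clones. For tetraploid against diploid clones it ranged from -0.27 to 0.23, so its sign changed with the clone left out. Counts of called features moved more, and the cause was not tested. With 1 clone left out, they ranged from 61 to 1434 for triploid against diploid (400 with all clones), 117 to 1312 for triploid against tetraploid (589), 0 to 40 for tetraploid against diploid (16) and 75 to 1461 for any difference (518). The highest counts of the pairs with triploid clones, and of any difference, came without triploid clone 1. Called members ranged from 0 to 1 for triploid against diploid, 0 to 2 for triploid against tetraploid and 0 to 1 for any difference. In the same order of comparisons, keeping dim probes gave 103, 198, 0 and 153 features, and the slide as a block, which drops diploid clone 1 from the estimate, 81, 284, 0 and 173; both left 0 members for any difference. Fitting only the groups compared gave 206 and 369 for the first pairs. Centring on probes seen on all arrays gave 97 for tetraploid against diploid clones and 794 for any difference. Quantile normalization gave 5 and normexp 9 for tetraploid against diploid clones, and normexp called 1 member, Polr1b, for triploid against tetraploid clones.

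Deviations from the group mean had r of -0.13 to 0.093 over the 9 pairs of clones with the same number, 0 over 0.1. Yet 7 of 9 clones correlated best with a clone of their own number in another group. These values do not settle whether clones pair by number. With the clone number as a replicate block, 219 features were called for triploid against diploid and 0 for tetraploid against diploid clones, and 0 members for any difference.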
